A study of Homo sapiens with 8 samples.

Results

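The distal long arm of chromosome 1, taken here as every H3K4me1 peak that starts at or beyond 200 Mb on that chromosome, held 1881 peaks in the list from ARID1A knockout cells and 2005 peaks in the list from control cells. These were 2.56% of the 73600 knockout peaks and 2.42% of the 82994 control peaks on chromosomes 1 to 22 and X, or 3886 of 156594 peaks in all. Positions are in hg38. The region was chosen by earlier values of these same lists (peak counts, covered bases, pileup and implied input background), so those measures are given below as a description, without a test. Inside it, knockout peaks were stacked higher and sat on a higher implied input background than control peaks, and peaks were fewer but wider. The whole lists differed in the same directions, with a knockout to control peak ratio of 0.887, against 0.938 here. With both lists merged alike the distal peak ratio was 1.01, so the lower number did not hold. Neither pattern starts at 200 Mb, because peaks between 145 and 200 Mb gave much the same values.

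The samples came from MDA-MB-231, a mesenchymal line derived from a triple-negative breast cancer, either with ARID1A knocked out or as control cells. The 8 samples were 2 knockout immunoprecipitates, 2 knockout inputs, 2 control immunoprecipitates and 2 control inputs. The sources used here do not give how the knockout was made or whether it was 1 clone, and a peak list does not check the loss of ARID1A itself. Each genotype has a single list, called from immunoprecipitate against input, so there is no spread between replicates to set any difference against, no p-value is given, and each interval covers counting error over peaks only.

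H3K4me1 is monomethylation of lysine 4 of histone H3, placed mainly by the KMT2C and KMT2D methyltransferases, and it marks enhancers and the flanks of active promoters, where the nucleosomes at the start itself carry trimethylation instead. ARID1A is the DNA-binding subunit of the canonical BAF form of the SWI/SNF complex, which moves and evicts nucleosomes at enhancers. The distal long arm of chromosome 1 carries TGFB2, which encodes a ligand of the TGF-beta pathway, the cluster of IL10-family cytokines, the cluster of complement regulators, and, near the telomere, a large cluster of olfactory receptors. The labelled cell line was read against marker genes anywhere in the genome. Of 7 mesenchymal and basal-like markers, 7 had a peak in the knockout list and 7 in the control list, with 231483 and 213183 covered bases in sum. Of 5 luminal markers, 4 had a knockout peak and 5 a control peak, with 61638 and 55936 covered bases, and PGR was without one in the knockout list. Of 5 leukocyte markers, 4 had a peak in each list, with 28926 covered bases in the knockout list and 13973 in the control list. H3K4me1 peaks over these genes therefore do not separate the labelled cell type from others.

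The promoters below were chosen because the lists differed over them or because they carry a motif and were covered in both. Each window runs from 250 bases before to 50 after the RefSeq transcription start in GRCh38.p14, 5′ to 3′ on the gene's strand. Capitals mark matches, on either strand, to TGANTCA (the core of the AP-1 site), GGAATG (the core of the TEAD site) or TATAAA, and a window in lower case holds none of them. The SMYD3 window (minus strand, chr1:246507230-246507529), that of EXO1 (plus strand, chr1:241847954-241848253) and that of CENPF (plus strand, chr1:214602945-214603244) lay within a peak in the knockout list only.
SMYD3: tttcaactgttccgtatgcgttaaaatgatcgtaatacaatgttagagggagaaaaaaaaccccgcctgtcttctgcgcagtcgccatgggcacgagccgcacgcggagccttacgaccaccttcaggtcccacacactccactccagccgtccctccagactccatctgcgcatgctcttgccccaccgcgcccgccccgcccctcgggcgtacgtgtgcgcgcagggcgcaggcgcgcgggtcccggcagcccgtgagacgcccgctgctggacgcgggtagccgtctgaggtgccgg
EXO1: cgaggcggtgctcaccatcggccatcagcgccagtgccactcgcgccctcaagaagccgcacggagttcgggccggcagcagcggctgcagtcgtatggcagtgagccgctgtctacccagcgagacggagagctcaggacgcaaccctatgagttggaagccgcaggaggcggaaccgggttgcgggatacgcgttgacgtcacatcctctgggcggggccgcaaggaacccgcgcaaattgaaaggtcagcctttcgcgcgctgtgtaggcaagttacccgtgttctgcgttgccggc
CENPF: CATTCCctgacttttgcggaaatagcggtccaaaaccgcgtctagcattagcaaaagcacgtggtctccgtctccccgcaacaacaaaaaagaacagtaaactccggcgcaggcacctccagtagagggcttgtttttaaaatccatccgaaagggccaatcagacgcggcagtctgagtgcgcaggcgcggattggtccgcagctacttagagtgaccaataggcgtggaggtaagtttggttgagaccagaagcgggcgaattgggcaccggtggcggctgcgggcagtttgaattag
The windows of NAV1 (plus strand, chr1:201648416-201648715) and HHAT (plus strand, chr1:210328002-210328301) lay within a peak in the control list only.
NAV1: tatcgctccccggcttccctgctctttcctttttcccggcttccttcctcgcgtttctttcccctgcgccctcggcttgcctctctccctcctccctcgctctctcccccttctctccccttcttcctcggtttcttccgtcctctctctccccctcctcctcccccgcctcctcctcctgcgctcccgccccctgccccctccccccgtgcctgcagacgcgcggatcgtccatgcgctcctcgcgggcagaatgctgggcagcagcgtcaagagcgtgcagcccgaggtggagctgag
HHAT: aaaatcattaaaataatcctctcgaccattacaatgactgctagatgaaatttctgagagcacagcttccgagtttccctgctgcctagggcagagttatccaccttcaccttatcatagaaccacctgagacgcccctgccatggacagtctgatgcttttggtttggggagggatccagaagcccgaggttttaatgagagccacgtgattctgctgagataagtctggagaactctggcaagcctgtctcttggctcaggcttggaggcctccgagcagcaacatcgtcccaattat
Those of ELF3 (plus strand, chr1:202010337-202010636) and CAPN2 (plus strand, chr1:223701347-223701646) lay within a peak in both lists.
ELF3: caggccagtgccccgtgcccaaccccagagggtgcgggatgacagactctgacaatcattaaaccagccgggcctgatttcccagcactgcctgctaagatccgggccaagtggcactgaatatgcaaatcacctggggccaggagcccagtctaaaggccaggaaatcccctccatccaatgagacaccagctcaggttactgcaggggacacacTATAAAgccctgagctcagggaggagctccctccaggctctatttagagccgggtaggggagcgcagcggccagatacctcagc
CAPN2: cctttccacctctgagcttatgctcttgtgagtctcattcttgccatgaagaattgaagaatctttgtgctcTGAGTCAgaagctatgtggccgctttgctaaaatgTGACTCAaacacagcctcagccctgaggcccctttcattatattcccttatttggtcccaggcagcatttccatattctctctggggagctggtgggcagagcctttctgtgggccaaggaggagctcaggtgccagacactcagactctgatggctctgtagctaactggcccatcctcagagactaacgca
SMYD3 encodes a lysine methyltransferase, EXO1 a DNA repair exonuclease, CENPF a kinetochore protein, NAV1 a neuron navigator protein, HHAT the palmitoyl transferase of Hedgehog ligands, ELF3 an epithelial ETS factor and CAPN2 the large subunit of m-calpain. The CENPF window has a single TEAD match, the ELF3 window a single TATAAA and the CAPN2 window 2 AP-1 matches. These windows also differ in base composition, with 34 CG dinucleotides in that of SMYD3, 33 in EXO1, 22 in CENPF, 24 in NAV1, 7 in HHAT, 7 in ELF3 and 2 in CAPN2, against a median of 21 over the 327 promoters of distal 1q and of 22 over all 15813 promoters in the table.

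The pileup is the authors' height of stacked fragments at a peak, and the fold enrichment relates it to the input. From these the implied background was computed as (pileup + 1) / fold − 1, an estimate of the local input level behind a peak. Over distal 1q the median pileup was 18.3 (95% interval 17.8 to 18.7) in knockout cells and 12.6 (12.3 to 12.9) in control cells, a ratio of 1.45. The median implied background was 5.45 (5.34 to 5.54) in knockout cells and 3.38 (3.34 to 3.40) in control cells, a ratio of 1.61. Because the whole lists also differ, with a ratio of 1.21 in pileup and 1.25 in background over all peaks, ratios for the region and its bins are also given relative to the whole lists, where so named, and the others are undivided. Relative to the whole lists, the distal ratio was 1.20 for pileup and 1.30 for background. The median fold enrichment was 2.96 in knockout cells and 3.08 in control cells, against 3.07 and 3.04 over the whole lists. The background is computed from pileup and fold, so where the fold is alike it must follow the pileup. Their joint rise is therefore not a separate result.

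Along the region the background shift was present in each of the 10 bins of 5 Mb. Relative to the whole lists it was 1.34, 1.35, 1.34, 1.19, 1.26, 1.29, 1.34, 1.25, 1.40 and 1.15 in these bins, in their order from 200 Mb to the telomere. The last bin, at the telomere, was the lowest and the one at 240 Mb the highest. The relative pileup ratio ran from 1.04 in the last bin to 1.32 in the bin at 240 Mb. In bins of 2.5 Mb the background was also above the whole-list ratio in each of 20 bins, the lowest being 1.0498 and the highest 1.47. The same measure was between 1.23 and 1.38 in the 11 bins from 145 to 200 Mb, between 0.641 and 1.06 in the 25 bins below 140 Mb, and 0.668 between 100 and 120 Mb. On other chromosomes 52 of 526 bins with at least 40 peaks were at or above the lowest distal bin, 17 of them on chromosome 13, so bins of this size are not particular to the region. Copy number was not analysed here, and its part in these ratios was not tested.

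**Figure D1:**
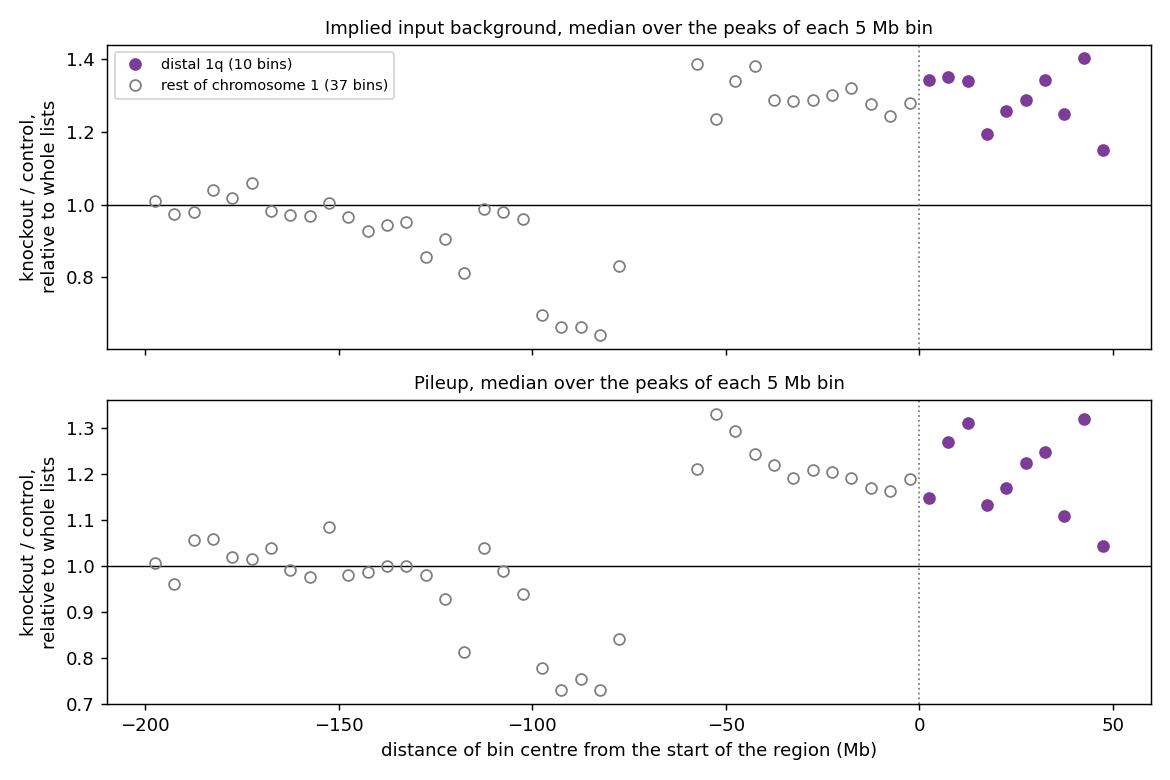
Ratio of knockout to control for the median implied background (top) and the median pileup (bottom) in bins of 5 Mb along chromosome 1, relative to the whole lists, against the distance of the bin from the start of the region in Mb. Each point is a bin, and the 10 filled ones, of distal 1q, sit between 1.15 and 1.40 for background, level with the open points just before them and above those farther left.

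The peaks on either side of the edge are single peaks and are given as values only. The last knockout peak before 200 Mb (199932492 to 199933180) had a pileup of 17.3 and a background of 8.06, and the first one inside (200028271 to 200030061) had 13.9 and 4.33 in the same order. The last control peak before the edge (199854704 to 199861445) had a pileup of 15.1 and a background of 3.70, and the first one inside (200028440 to 200030371) had 10.03 and 2.92. The first knockout and the first control peak inside overlap each other.

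Peaks that overlapped exactly 1 peak of the other list allow the same places to be compared. There were 1240 such pairs in distal 1q, and the knockout pileup was the higher one in 1135 of them (91.5%). On the rest of chromosome 1 it was the higher one in 71.4% of the 3591 pairs. That share was 93.4% of 1038 pairs between 140 and 200 Mb and 62.5% of 2553 pairs below 140 Mb. Over the whole lists it was 72.5%. The median ratio of pileups within a pair was 1.48 (quartiles 1.23 and 1.73) in distal 1q, 1.496 between 140 and 200 Mb, 1.08 below 140 Mb and 1.17 over the whole lists, all undivided. The ratio of backgrounds within a pair had a median of 1.66 (quartiles 1.40 and 1.92) in distal 1q. The median was 1.64 between 140 and 200 Mb and 1.23 over the whole lists. This ratio was over 1 in 96.9% of pairs in distal 1q, 98.4% between 140 and 200 Mb and 78.8% over the whole lists. The undivided shift was thus spread over most places with a peak in both lists and was not carried by a few tall peaks. The whole lists were shifted in the same direction, by less. The knockout peak was the longer one in 665 pairs (53.6%).

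**Figure D2:**
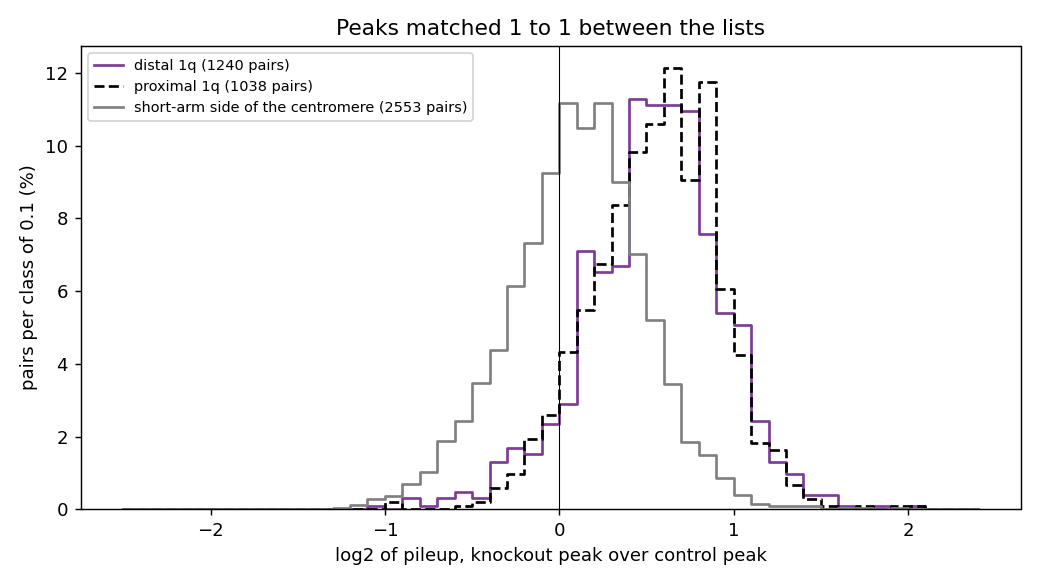
Distribution of the log2 ratio of pileups, knockout over control, within pairs of peaks that overlap 1 to 1 (x axis), as the percent of pairs in each class of 0.1 (y axis), for distal 1q, proximal 1q and the short-arm side of the centromere. The distal and proximal outlines lie nearly over each other, with median ratios of 1.48 and 1.496, to the right of the short-arm side at 1.08.

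A few places went far from that median, and they were picked after their values were seen. A peak inside UTP25, a nucleolar gene of ribosomal RNA processing, had a pileup of 42.0 in knockout cells and 10.4 in control cells, a ratio of 4.03. A peak 32565 bases from TRAF5, an adaptor of tumour necrosis factor receptors, had 26.8 in knockout cells and 7.56 in control cells. A further peak, 183602 bases from CAMK1G and upstream of the hairpin of MIR205, had 36.8 in knockout cells and 11.6 in control cells. In the other direction, a peak 35038 bases from KCNK1, a potassium channel gene, had 10.5 in knockout cells and 21.7 in control cells, a ratio of 0.483. Inside LRRN2, a leucine-rich repeat gene, the values were 10.05 in knockout cells and 18.1 in control cells, and inside LAD1, which encodes the basement-membrane protein ladinin, 15.7 in knockout cells and 27.0 in control cells. These low pairs go against most of the pairs in the region.

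In number, the peaks of distal 1q stood at 0.938 of control (counting interval 0.880 to 0.9996), against 0.854 (0.823 to 0.887) on the rest of chromosome 1. The peak ratio was 0.970 between 140 and 200 Mb and 0.887 over the whole lists. Peaks of distal 1q covered 4618766 bases in knockout cells and 4303944 bases in control cells, a ratio of 1.07, against 0.912 on the rest of the chromosome. The covered-base ratio was 1.08 between 140 and 200 Mb and 0.962 over the whole lists. Mean width was 2455 bases in knockout cells and 2147 in control cells, and 49 knockout peaks and 39 control peaks were at least 10 kb wide. Over the whole lists mean width was 2395 bases in knockout cells and 2207 in control cells. There 1559 knockout peaks and 1663 control peaks were at least 10 kb wide. The larger covered length of the knockout list in distal 1q therefore came with fewer and wider peaks. Strong peaks, here those whose −log10 q reached 5, numbered 756 (40.2% of the peaks) in knockout cells and 534 (26.6%) in control cells. Over the whole lists they were 37.5% of knockout peaks and 28.8% of control peaks, a ratio in number of 1.15. Between 140 and 200 Mb they were 41.0% and 24.7%, a ratio in number of 1.61. A background within 5% of the lowest one of the list was found at 1.06% of knockout peaks and 7.68% of control peaks. Over the whole lists it was found at 5.89% and 9.56%. The direction of the peak ratio did not hold when only strong peaks were kept (1.42) or when both lists were merged alike (1.01), and the covered-base ratio was 0.959 at a fold of at least 4.

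The bins of 5 Mb differed more in coverage than in background. Covered bases were 0.989, 0.946, 1.03, 1.17, 1.101, 1.24, 0.989, 1.12, 1.27 and 1.04 times those of control in the bins, in order. In the second bin, which was the lowest, there were 196 knockout peaks and 252 control peaks. In the bin at 240 Mb, which was the highest, there were 197 knockout peaks and 194 control peaks, covering 503052 and 395556 bases. Strong peaks outnumbered those of control in each of the 10 bins, by a ratio of 1.08 in the bin at 200 Mb to 2.08 in the bin at 240 Mb. They also did so in each of the 11 bins from 145 to 200 Mb, by a ratio of 1.22 to 4.33.

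**Figure D3:**
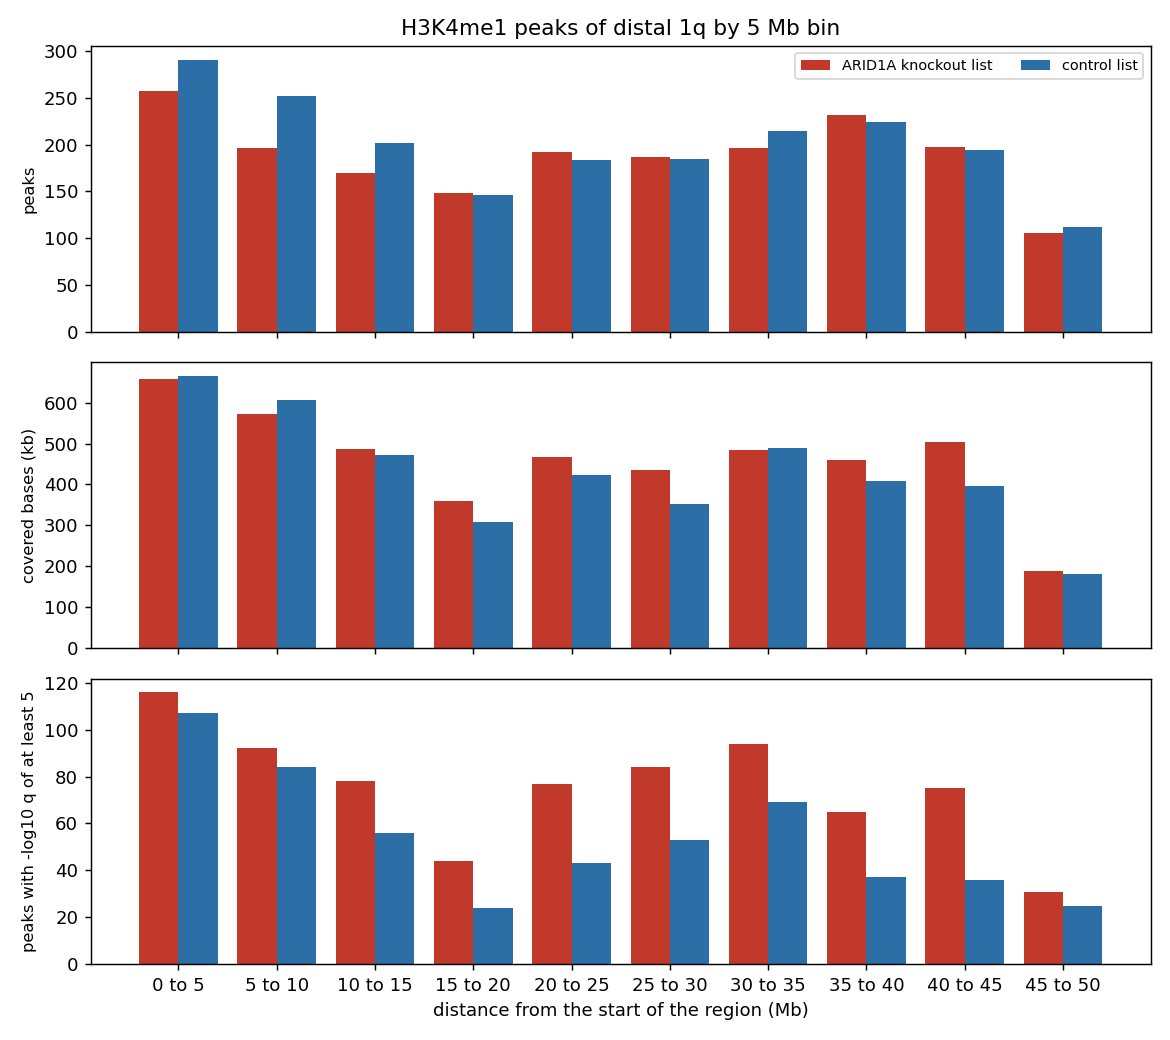
Peaks (top), covered bases in kb (middle) and strong peaks (bottom) in the 10 bins of 5 Mb of distal 1q, against the distance from the start of the region in Mb, with a knockout and a control bar for each bin. Knockout bars are the higher ones in each bin for strong peaks, but in only 7 of 10 bins for covered bases and 5 of 10 for peaks. Strong peaks were also more numerous in the knockout list as a whole, by a ratio of 1.15.

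Peaks without any overlap in the other list were 470 of the knockout peaks (24.99%, exact interval 23.04 to 27.01) and 512 of the control peaks (25.5%, 23.6 to 27.5). On the rest of chromosome 1 they were 17.0% (15.98 to 18.1) of the knockout peaks and 27.7% (26.6 to 28.8) of the control peaks. Over the whole lists they were 21.3% of the knockout peaks and 28.2% of the control peaks. Between 140 and 200 Mb they were 24.3% and 22.7%, and below 140 Mb 13.7% and 29.6%, in the same order. Within distal 1q the knockout share ran from 10.2% in the second bin to 38.5% in the fourth bin. The strongest such knockout peaks lay 23143 bases from SLC30A1, a zinc exporter gene, with a pileup of 33.8, then 14124 bases from CDC42BPA with 28.9 and 70290 bases from RAB4A with 23.4. The strongest control ones lay inside ATP2B4, a plasma-membrane calcium pump gene, with a pileup of 18.6, then 15296 bases from PHLDA3 with 16.9 and inside TBCE with 19.5. The knockout peak near SLC30A1 was only 2157 bases from the closest control peak, while the knockout peak inside HHAT was 27913 bases from one.

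Genes were compared by the bases that peaks covered over the RefSeq record with 5000 bases on either side, and a gene was called higher or lower where the lists differed by at least 1000 bases. The difference was not divided by the length of the window. Long genes can therefore reach a call, or a place among the largest differences, more readily than short ones. Of the 377 protein-coding genes whose record starts in distal 1q, 110 (29.2%) were higher in knockout cells, against 20.2% of the 19974 protein-coding genes of the whole lists. Lower were 95 (25.2%), against 30.0% of all genes. A further 46 had no peak in either list. Between 140 and 200 Mb, 23.2% of 596 genes were higher and 20.5% lower, and below 140 Mb, 15.5% of 1089 genes were higher and 36.1% lower. These calls come from the contrast by which the region was chosen. The bin at 225 Mb held the most higher genes, 22 of 47, with 6 lower, and the second bin had the reverse, with 11 higher and 21 lower of 57. With only strong peaks kept the genes split into 149 higher and 51 lower, and with only a fold of at least 4 into 56 higher and 86 lower, so the balance of calls depends on which peaks are kept. It also depends on the window, since the record alone, without the 5000 bases on either side, gave 74 higher and 84 lower. The shares over all genes at these limits and with this window were not computed, so these counts have no yardstick.

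Taller knockout peaks were found at genes of either call. Of the 306 genes with a peak in each list, the highest knockout pileup exceeded the highest control pileup in 289 (94.4%), and the median ratio, not divided by that of the whole lists, was 1.503. Among the 91 such genes that were lower in covered bases, it still did so in 86, with a median ratio of 1.46. Among the 104 that were higher in covered bases it did so in 103, with a median ratio of 1.58. Genes with fewer covered bases in knockout cells thus also mostly had taller remaining peaks, on a relative background with a median of 1.37. The matching share over all genes was not computed, and pileup was among the measures by which the region was chosen. In 1 to 1 pairs the knockout pileup was higher in 72.5% over the whole lists and 93.4% between 140 and 200 Mb. Taller knockout peaks are therefore not particular to these genes.

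The largest gain in covered bases was at FMN2 (plus strand, 240091883 to 240475187), which encodes formin 2, an actin nucleator. Its record was covered over 114890 bases in knockout cells by 26 peaks and over 40523 bases in control cells by 25 peaks, so the peaks were about equal in number and wider. The tallest had a pileup of 31.8 in knockout cells and 14.8 in control cells, and the background ratio relative to the whole lists, 1.61, was the highest among the 12 largest gains. A single knockout peak of 25198 bases in FMN2 overlapped 2 control peaks over only 3193 bases. Near it in the genome, CHRM3, the M3 muscarinic receptor gene, had 87585 bases in 40 knockout peaks and 56857 bases in 29 control peaks. These neighbours lie within the bins at 235 and 240 Mb.

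Signalling and cytoskeletal genes were among the other large gains, and others, such as EGLN1, ATF3, LMOD1 and SIPA1L2, were among the largest losses. CDC42BPA, a kinase that acts downstream of CDC42, had 45570 covered bases in knockout cells and 28437 in control cells. DUSP10, a phosphatase of the stress kinases p38 and JNK, had 17820 bases in knockout cells and 5777 in control cells. PTPN14, a phosphatase that restrains YAP, was already widely covered, with 125254 bases in 13 knockout peaks and 112824 bases in 18 control peaks. At TGFB2 there were 58477 bases in 5 knockout peaks and 50821 bases in 8 control peaks, and its widest peak measured 36175 bases in knockout cells and 35875 in control cells. Fewer peaks over more bases, as at PTPN14 and TGFB2, was also seen at OPN3, an opsin gene, with 25340 bases in 4 knockout peaks and 12763 bases in 7 control peaks. The lists were not merged alike, which bears on such counts. With the same merging the gain was 9715 bases at PTPN14, 6304 at TGFB2 and 12577 at OPN3, against 12430, 7656 and 12577 as deposited. SMYD3 had 47304 bases in 22 knockout peaks and 35468 bases in 22 control peaks. DISP1, which releases Hedgehog ligands, had 21493 bases in knockout cells and 11974 in control cells. NSL1, a kinetochore gene, had 16771 in knockout cells and 9225 in control cells, and SLC35F3, a solute carrier gene, 40401 in knockout cells and 33164 in control cells. Of the 12 largest gains, 6 remained at 1000 bases or more under each of 5 other settings (among them FMN2, OPN3, PTPN14, SMYD3 and SLC35F3), and TGFB2 became a loss of 35875 bases when only peaks with a fold of at least 4 were kept.

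The largest loss was at RYR2, the cardiac ryanodine receptor gene, with 55710 covered bases in 42 knockout peaks and 79603 bases in 61 control peaks. EGLN1, the prolyl hydroxylase that marks HIF1A for decay, had 28096 bases in knockout cells and 42830 in control cells, and a control peak of 25483 bases there was met by 2 knockout peaks over 12301 bases. TP53BP2, a partner of p53, had 24873 bases in knockout cells and 37317 in control cells. At both EGLN1 and TP53BP2 the tallest peak was nonetheless taller in knockout cells, with pileups of 34.6 and 34.7 in knockout cells and 20.3 and 25.4 in control cells. CNIH3, an auxiliary subunit gene of AMPA receptors, had 61090 bases in knockout cells and 72699 in control cells. HNRNPU, a nuclear RNA-binding protein gene, had 8769 bases in knockout cells and 17247 in control cells, on the highest relative background of these losses, 1.87. ATF3, a stress-induced transcription factor gene, had 12794 bases in knockout cells and 19190 in control cells, and LMOD1, a smooth-muscle actin nucleator gene, 5836 in knockout cells and 12975 in control cells. Small losses by length but large by share were at TOMM20, the import receptor of mitochondria, with 5709 bases in knockout cells and 11646 in control cells, and at KCNK1, with 1562 in knockout cells and 7296 in control cells. ZC3H11A, whose record is shared with ZBED6 so that they cannot be told apart here, had 9137 bases in knockout cells and 16916 in control cells. SIPA1L2, a Rap GTPase regulator gene, had 25401 bases in knockout cells and 31358 in control cells. Of the 12 largest losses, 5 remained under each of the 5 settings (KCNK1, ATF3, LMOD1, TP53BP2 and EGLN1), and RYR2, CNIH3, HNRNPU and SIPA1L2 turned to gains when only strong peaks were kept.

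**Figure D4:**
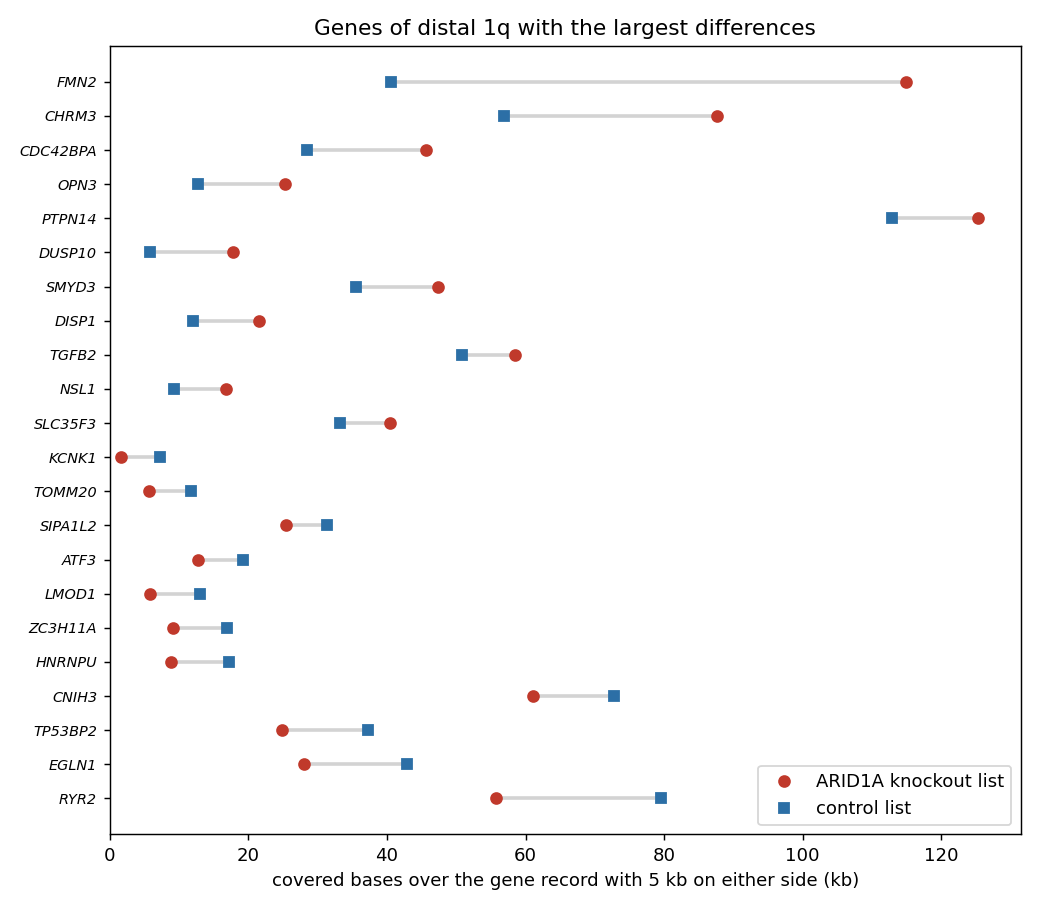
Covered bases in kb (x axis) in knockout cells (circles) and control cells (squares) over the RefSeq record with 5 kb on either side, for the genes with the largest gains and losses in distal 1q that are reported here. FMN2, at 114890 bases in knockout cells and 40523 in control cells, has the widest gap, and RYR2, at 55710 in knockout cells and 79603 in control cells, the widest among the losses.

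The gene lists, put together from textbook roles with earlier results of these data known, held both directions of change in each list. Of 4 IL10-family cytokine genes, 2 were higher and 2 lower. IL10, the anti-inflammatory cytokine, had 4575 bases in knockout cells and 1757 in control cells, under a peak of 37.9 and 19.6. IL24 had 12273 bases in knockout cells and 11023 in control cells, while IL19 had 5040 in knockout cells and 8171 in control cells and IL20 had 1412 in knockout cells and 2873 in control cells. The records of IL10 and IL19 overlap and share a peak, so these counts are not independent. Over the records alone the difference, knockout minus control, was 266 bases at IL10, −508 at IL24 and −432 at IL20, so those 3 calls rest on the flanks.

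Among the 11 complement regulators and Fc receptors of the cluster, 2 were higher, 3 lower and 1 had no peak in either list. The decay-accelerating factor CD55 had 6620 bases in knockout cells and 5664 in control cells, and CD46, the membrane cofactor protein, had 6465 in knockout cells and 7338 in control cells, both under the 1000 bases that make a call. CR1L was covered in control cells alone, over 1826 bases, and FCAMR in knockout cells alone, over 1317 bases. The main surface regulators were thus covered over similar lengths in both lists.

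In the epithelial identity list 4 of 10 genes were higher and 2 lower. CDC42BPA, among the higher ones, is also counted in the actin and adhesion list. ELF3 lay under a single knockout peak within its 16376 bases, against 3 control peaks over 12456 bases. ESRRG, an orphan nuclear receptor gene, had 37381 bases in knockout cells and 31887 in control cells, and LAD1 had 2264 in knockout cells and 5450 in control cells. LAMB3, a gene of the laminin of epithelial basement membranes, had 16660 bases in knockout cells and 17338 in control cells, which made no call. In the extracellular matrix list 2 of 11 genes were higher and 3 lower. The 2 higher ones were TGFB2, a ligand gene, and HHAT, a transferase gene, and neither encodes a structural matrix protein. Among the lower ones CHI3L1, a secreted glycoprotein gene, had 3196 bases in knockout cells and 5107 in control cells. That difference was −93 bases over the record alone.

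Of 18 genes of kinase and stress signalling, 3 were higher and 8 lower, with a median difference of −827.5 bases. With only strong peaks kept that median was 1838.5 bases, so its direction turns. IKBKE, a kinase of innate immunity, had 9606 bases in knockout cells and 13366 in control cells, and ELK4, a ternary complex factor, had 5612 in knockout cells and 9451 in control cells. MARK1, a microtubule-affinity kinase gene, was a gain with 6552 bases in knockout cells and 1362 in control cells, and it was also unusual in its relative background, 0.751. The wider list of actin and adhesion regulators had 7 of 16 higher and 7 lower, with PLXNA2, a semaphorin receptor gene, at 41358 bases in knockout cells and 36282 in control cells. Chromatin and repair genes had 7 of 17 higher and 4 lower. EXO1 had 6734 bases in knockout cells and 3452 in control cells, KDM5B, an H3K4 demethylase gene, 11409 in knockout cells and 10367 in control cells, and CENPF 6170 in knockout cells and 8760 in control cells.

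In the list of 8 Wnt ligands and developmental regulators, 5 were higher and 2 lower. The 2 lower ones were SOX13 and BPNT1, a nucleotidase gene that the list name describes poorly. The median difference of 1056.5 bases was 35.5 with only strong peaks and 0 at a fold of at least 4. WNT9A had 4836 bases in knockout cells and 1230 in control cells, and WNT3A had 3166 in knockout cells and 1483 in control cells. Of 17 neuronal and muscle genes, 9 were higher and 7 lower, with a median difference of 1485 bases that was 0 under each of those limits. KCNK2, a mechanosensitive potassium channel gene, had 5172 bases in knockout cells and 2674 in control cells, and NFASC, the neurofascin gene, had none in knockout cells and 4362 in control cells. The olfactory receptors, which are silent in most tissues, had 22 of 41 members without a peak in either list, and 3 were higher and 2 lower. OR14A2 and OR14K1, which overlap, had 7154 and 3338 bases in knockout cells and 12404 and 8095 in control cells, and over the record alone the difference at OR14K1 was 127 bases. None of these list counts was tested, and they stand beside 29.2% higher and 25.2% lower over all genes of the region. The lists differ in gene length, with windows such as 801805 bases at RYR2 and 16247 at OR2M2. Since calls are not scaled to length, the regional shares are not a matched yardstick for them.

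**Figure D5:**
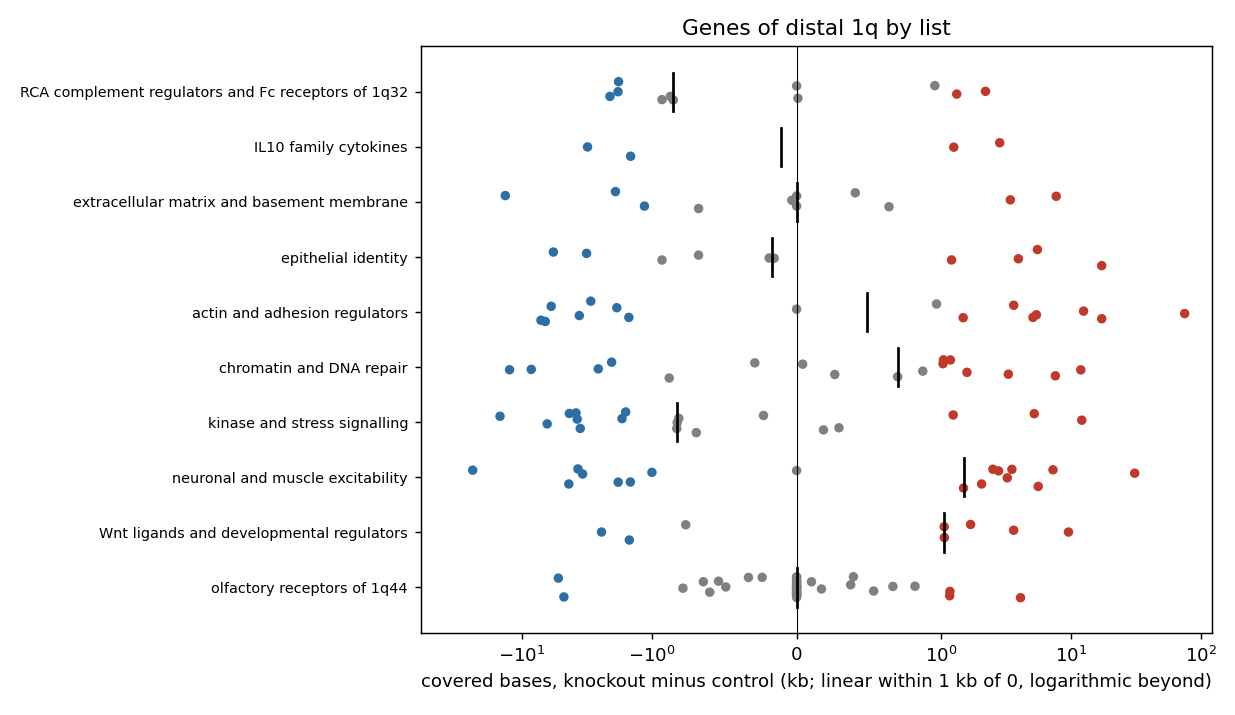
Difference in covered bases, knockout minus control, in kb on an axis that is linear within 1 kb of 0 and logarithmic beyond, for each gene of the 10 lists, with the median of each list as a bar. Red points are higher and blue points lower by at least 1000 bases, both colours occur in each list, and the medians run from −853 bases in the complement and Fc receptor list to 1485 bases in the neuronal and muscle list.

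At promoters the knockout list reached more often across the transcription start. Of the 327 genes with a promoter window, 51 (15.6%, 11.8 to 19.99) were overlapped by a peak in knockout cells only, 11 (3.36%, 1.69 to 5.94) in control cells only, 51 in both and 214 in neither. The same was seen over the whole lists, at 13.4% of 15813 windows in knockout cells only and 4.17% in control cells only. At SMYD3 the knockout peak over the window ran from 246502892 to 246508413 with a pileup of 21.2, at EXO1 from 241845596 to 241851680 with 17.99 and at CENPF from 214601992 to 214605255 with 25.4. At NAV1 the control peak over the window had a pileup of 15.2, and at HHAT 10.02. At ELF3 the peak over the window ran from 202005808 to 202023968 with a pileup of 32.2 in knockout cells and from 202009364 to 202015057 with 14.5 in control cells. At CAPN2 the pileup over the window was 38.3 in knockout cells and 27.3 in control cells, although the gene as a whole was covered less, over 50204 bases in knockout cells and 56824 in control cells. The 300-base window of OPN3 was covered over 300 bases in knockout cells and 16 bases in control cells. TGANTCA was found in 6.73% of the windows of the region and 5.75% of all windows, GGAATG in 15.9% of those of the region and 11.7% of all, and TATAAA in 13.1% of those of the region and 9.64% of all. These shares were not tested against each other.

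The peaks inside NAV1 and next to ENAH were among the 5 tallest in both lists. In knockout cells the highest pileups included 53.8 in a peak 10508 bases from TMCC2 (205283852 to 205289412), 50.8 in one 46667 bases from OPTC, 49.9 inside NAV1 and 46.6 in one 577 bases from ENAH, an actin regulator gene of the Ena/VASP family. In control cells the highest were 33.3 inside SYT2, 32.7 next to ENAH, 31.9 in a peak 104287 bases from ZBTB18, 31.8 inside TMCC2 and 31.6 inside NAV1. Each of the 5 tallest peaks in either list overlapped exactly 1 peak of the other. Wide domains were split differently. A knockout peak of 24488 bases near NEK2, a centrosomal kinase gene, overlapped 4 control peaks, and 1 of 24316 bases in PTPN14 also overlapped 4. A control peak of 31080 bases in CAPN2 overlapped 2 knockout peaks, and 1 of 29899 bases in TP53BP2 overlapped 3. The lists were not merged alike, with a smallest gap of 1445 bases in the knockout list and 1249 in the control list. With the same merging the covered-base difference fell from 12430 to 9715 at PTPN14 and from 1237 to −56 at NEK2. It stayed at −6620 at CAPN2 and −12444 at TP53BP2. The part of merging in how these domains split was not tested.

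The region also holds 29 microRNA hairpins, and the mature sequences of those with a difference, a peak on the hairpin or a shared seed are given from RefSeq (GRCh38.p14), 5′ to 3′, with the seed (bases 2 to 8) in capitals.
hsa-miR-205-5p: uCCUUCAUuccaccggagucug
hsa-miR-3123: cAGAGAAUuguuuaauc
hsa-miR-135b-5p: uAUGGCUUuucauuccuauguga
hsa-miR-1182: gAGGGUCUugggagggaugugac
hsa-miR-29c-3p: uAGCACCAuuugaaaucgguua
hsa-miR-29b-3p: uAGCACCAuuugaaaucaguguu
Of the 29 hairpins, counted with 5000 bases on either side, 2 had at least 1000 more bases in knockout cells, MIR205 and MIR3123, against 8.54% of all 1558 hairpins. MIR205, the source of miR-205, which targets the EMT factors ZEB1 and ZEB2, had 2398 bases in knockout cells and 609 in control cells. MIR3123 had 1545 bases in knockout cells and none in control cells. No hairpin of the region was lower by 1000 bases, against 10.7% of all hairpins, and 10 had no peak in either list. MIR135B, with 3940 bases in knockout cells and 4790 in control cells, and MIR1182, with 2208 in knockout cells and 2071 in control cells, were the hairpins that lay under a peak themselves. MIR29C and MIR29B2, whose 3p products share the seed AGCACCA, lie side by side and had 3211 and 3204 bases in knockout cells and 3288 and 3306 in control cells.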

How the data were processed

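Immunoprecipitated and input chromatin, digested with micrococcal nuclease per the labels' protocols, came from MDA-MB-231 cells with and without ARID1A. The antibody label and the titles name H3K4me1, whereas the protocol text names H3K4me3, and H3K4me1 is used here. Bowtie2 2.3.5.1, MACS2 2.2.6 and hg38 were used, per the submitters' processing notes. The sources used here give neither the settings nor the way replicates entered each call. The deposited lists, 1 per genotype, give, per the file headers, position, pileup (a signal of stacked fragments), fold enrichment (a ratio over input) and the −log10 of p and q values. Read totals were not used, so depth is unknown, and the lists are treated as pooled.

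From these were computed peak counts, covered bases, medians with order-statistic intervals, ratios with counting intervals and exact (Clopper-Pearson) shares, all at 95%. The implied background is (pileup + 1) / fold − 1, on the assumption of MACS2's default pseudocount of 1. Relative ratios are divided by the ratio over all peaks of chromosomes 1 to 22 and X. Peaks were shared at an overlap of at least 1 base. The smallest gap between peaks was 1445 bases in the knockout list and 1249 in the control list, and the shortest peak 361 and 312, so the lists were not merged alike. An alternative gave both the same merging distance (1444 bases) and shortest peak.

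Genes, promoters and microRNAs came from RefSeq tables of GRCh38.p14, and exons and genome sequence were not used here. Named genes are the 12 largest gains and losses with no overlapping window, up to 3 list members per direction, the genes nearest the 5 tallest, widest and strongest single-list peaks, and the largest difference per bin. Other genes and pairs were added after their values were seen. Some named genes are left out for length, and a few that the rule or the lists hold are not reported here, although they stay in the counts. The members and lists were chosen with earlier results of these data known. Interval and overlap code was tested on simulated data. Python 3.11.15, numpy 2.4.6, pandas 2.3.3 and scipy 1.17.1 were used.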

Additional observations from a re-analysis of the deposited data

How the results depend on the processing

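No paired analysis was possible because each genotype has a single pooled list. Moving the start by 5 Mb either way changed no summary value of the region by more than its spread. Keeping only strong peaks (−log10 q of 5 or more) reversed the peak ratio to 1.42 and gave a covered-base ratio of 1.41, a relative background of 1.34, shares without overlap of 43.1% in knockout cells and 18.4% in control cells, and 149 genes higher and 51 lower. Keeping only a fold of at least 4 reversed the covered-base ratio to 0.959 and gave a peak ratio of 0.863, an undivided pileup ratio of 1.60, a relative background of 1.37, shares of 35.8% and 43.0%, and 56 genes higher and 86 lower. The same merging for both lists moved the peak ratio past 1, to 1.01, and the control share without overlap to 23.5%. The relative background was 1.25 with a pseudocount of 0 and 1.34 over pairs alone. An overlap of at least 50% gave shares without overlap of 36.8% in knockout cells and 34.8% in control cells. A difference of at least 2000 bases left 66 genes higher and 65 lower. Genes split into 74 higher and 84 lower with no flank and 103 and 102 with the same merging. The matching shares over all genes were not computed under any of these settings. Directions of covered length therefore depend on which peaks are kept, and that of the gene calls also on the window, whereas the higher pileup and background held under each alternative run for them. Why the q and fold limits act in opposite ways was not tested.

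Single genes that changed sign are given as knockout minus control bases. With strong peaks only these were WNT3A at −95, SLC30A1 at −192, BPNT1 at 1465, CENPF at 3264, RAB4A at 3084, KCNH1 at 1766, SIPA1L2 at 2498, HNRNPU at 8122, CNIH3 at 5462 and RYR2 at 6265. With a fold of at least 4 they were CHRM3 at −1383, DISP1 at −2297, TGFB2 at −35875, NSL1 at −4222, SYT2 at −2206, NAV1 at −4642, HHAT at −1312, WNT3A at −1483, NEK2 at −3065, BPNT1 at 123 and TMCC2 at 1338. With the same merging NEK2 was at −56. With no flank SLC30A1 was at −192, IL24 at −508, OR2AJ1 at −117, TMCC2 at 140, OR14K1 at 127, OPTC at 214, PHLDA3 at 214 and ZBTB18 at 328, and with a flank of 10000 bases OR2AJ1 was at −229 and PHLDA3 at 1878. OPTC, PHLDA3 and ZBTB18 had made no call.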

Other observations

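Peaks of distal 1q lay farther from transcription starts than those on the rest of chromosome 1. Within 1000 bases of a transcription start were 5.95% (4.93 to 7.12) of knockout peaks and 4.69% (3.80 to 5.71) of control peaks in distal 1q, against 8.03% and 6.94% on the rest of the chromosome. The median distance to a start was 43262 bases for knockout peaks and 40037 for control peaks, against 24455.5 and 25147 on the rest of the chromosome. Peaks found in the knockout list alone lay at a median of 71908.5 bases from a start and those found in the control list alone at 57113. Shared peaks of the region lay nearer, at 37315 bases in the knockout list and 36513 in the control list. On the rest of the chromosome the single-list medians were in the same order, 47824.5 and 38693, so that order is not particular to the region. The longest stretch without a peak in either list ran over 306187 bases (248290775 to 248596961) and held 11 genes of the olfactory receptor cluster. The next, over 298813 bases (242525557 to 242824369), held no whole gene, and the gene named at it was PLD5, of the phospholipase D family.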
